A study of Mus musculus with 6 samples.

Results

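The genes of the retinoid receptors and binding proteins were followed in the 13.5 dpc mouse ovary. They are 9 genes chosen by name: the retinoic acid receptors Rara, Rarb and Rarg, the retinoid X receptors Rxra, Rxrb and Rxrg, the cytosolic retinoic acid binding proteins Crabp1 and Crabp2, and Stra6, the membrane receptor through which cells take up retinol. All 9 were found by their Ensembl identifiers among the 48709 genes of the deposited count table, and all 9 passed the expression filter that kept 20167 genes for testing.

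The ovaries came from embryos of wild-type CD1 mice, and each library was made from a pool of gonads from a pair of dams. The dams of the 3 APAP + IBU pools received acetaminophen (APAP, 30 mg/kg/day) and ibuprofen (IBU, 15 mg/kg/day), 2 analgesics that lower prostaglandin production, in turn by gavage 4 times a day at intervals of 3 h from 10.5 to 13.5 dpc. The dams of the 3 control pools were gavaged with ethanol, the diluent that both groups received. Whole gonads were used, so for every gene below fewer cells of a type and less RNA per cell cannot be told apart.

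Retinoic acid is made from retinol inside cells and acts through pairs of nuclear receptors, in which a retinoic acid receptor binds DNA together with a retinoid X receptor. The CRABP proteins hold retinoic acid in the cytoplasm, where CRABP2 is known to pass it to the receptors and CRABP1 to bring it to the enzymes that degrade it. In the fetal ovary retinoic acid is best known for inducing Stra8 and Rec8 as germ cells enter meiosis, the step that the study asked about after exposure.

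The receptor pairs bind repeats of a 6-base hexamer, and the start of Rarb holds the best known of them, so it is shown here with the hexamers of the other genes. Promoter windows of 250 bases before to 50 bases after a start were taken from RefSeq (GRCm38.p6). They were given for 8 of the 9 genes, in 18 windows, and not for Crabp2. For repeats the hexamer was read as RGKTCA, where R is A or G and K is G or T. A direct repeat of 2 hexamers with 5 bases between them (DR5), searched on both strands, was found in 32 of 32851 windows of this length (0.0974%). Among the 9 genes it was found only in the Rarb window. It lies from 53 to 37 bases before a start inside the Rarb gene, and its core, read as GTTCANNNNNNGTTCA, which overlaps the DR5, was found in 0.0761% of windows. The 150 bases before this start (chr14:16575477-16575626, minus strand) are printed with the DR5 in capitals.
Rarb: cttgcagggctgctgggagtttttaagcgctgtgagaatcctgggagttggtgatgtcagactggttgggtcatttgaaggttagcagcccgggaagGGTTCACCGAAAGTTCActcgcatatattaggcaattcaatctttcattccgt

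Single AGGTCA hexamers, searched on both strands, occurred in 16.3% of windows and in 4 of the 18 windows of these genes, once each for Rara, Rarg and Rxrg and at 2 positions for Rxra. The DR2 repeat (0.268% of windows) and the DR1 repeat (0.222%), with 2 and 1 bases between RGKTCA hexamers, were found in none of the 18. The AGGTCA hexamers are printed in capitals within 24 bases, each 5′ to 3′ on the strand of the gene, where TGACCT is AGGTCA on the other strand. A match describes these letters only, and no binding was measured.
Rxrg (chr1:167618168-167618191): ggggttgaaAGGTCAgctgaaagc
Rxra (chr2:27709235-27709258): tggcaggaaAGGTCAgtcactctc
Rxra (chr2:27709196-27709219): aaatgggtgTGACCTgagtaatgg
Rara (chr11:98964896-98964919): gattgcagcAGGTCAgtcctttgg
Rarg (chr15:102257733-102257756): ccaggacacTGACCTctgccagct

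The total count per library ran from 37811968 to 48954631. At the lowest count of each gene, counting error came to between 1.61% and 4.88% for the genes other than Rxrg, small beside the spread between pools. For Rxrg it came to 17.4%, which was not small beside its control level of 1.31 ± 0.438 CPM (SD, n = 3). The replicate 3 libraries of both groups stood apart. The summed level of 16 liver genes, led by Afp and Alb, reached 2061 CPM (counts-per-million) in the third control library and 3328 CPM in the third exposed one, while replicates 1 and 2 of both groups held 204 to 570 CPM. The fold changes of the 9 genes are given over all 6 libraries and again over replicates 1 and 2 of each group. This choice was made with the liver RNA of replicate 3 known from an earlier analysis of these data. It leaves out control replicate 3, the lowest control for 8 of the 9 genes. Germ cell markers (10 genes, led by Dazl and Ddx4) summed to between 1108 and 1374 CPM in controls and between 1250 and 1480 CPM after exposure, and granulosa precursor markers (10 genes, led by Wnt4 and Fst) to between 519 and 829 CPM and between 652 and 690 CPM. No gene of these lists was at 0 in all libraries.

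None of the 9 genes passed the test over 6 libraries, in edgeR's quasi-likelihood test or in DESeq2. This was so of all genes in edgeR, where 0 of 20167 (0%) had an adjusted p under 0.05 and the smallest adjusted p was 0.0906, while DESeq2 called 192. At an unadjusted p under 0.05 edgeR had 1 of the 9 genes, Crabp2, against 1254 genes in all (6.22%). All 9 fitted fold changes were nevertheless under 0, meaning lower in APAP + IBU-exposed ovaries, with a median log2 fold change of -0.30, while 50.6% of all tested genes were under 0 and their median was -0.0047. The sign of Rxra, at -0.033, turned to 0.0032 when libraries were scaled by total counts, and with control replicate 1 left out Rxra, at 0.049, and Rxrb, at 0.064, were above 0.

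The ranges of the groups overlapped for all 9 genes over 6 libraries, where 5.92% of all tested genes had all exposed libraries below all controls and 10.7% did not overlap in either direction. In replicates 1 and 2 the exposed libraries were below both controls for 7 of the 9 genes, against 35.5% of all tested genes, and not for Rarb and Stra6. In these 4 libraries 4 of the 9 genes, Crabp1, Crabp2, Rarg and Rara, had an adjusted p under 0.05 and all 4 were lower after exposure, with a median log2 fold change of -0.56 over the 9. Of all genes tested in these 4 libraries, 27.2% were called, 12.9% as lower, and the median log2 fold change was -0.0032. Without control replicate 1 the count was 2, and after correction of each library for gene length and GC content it was 0, where 14.6% of all genes were called.

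**Figure D1:**
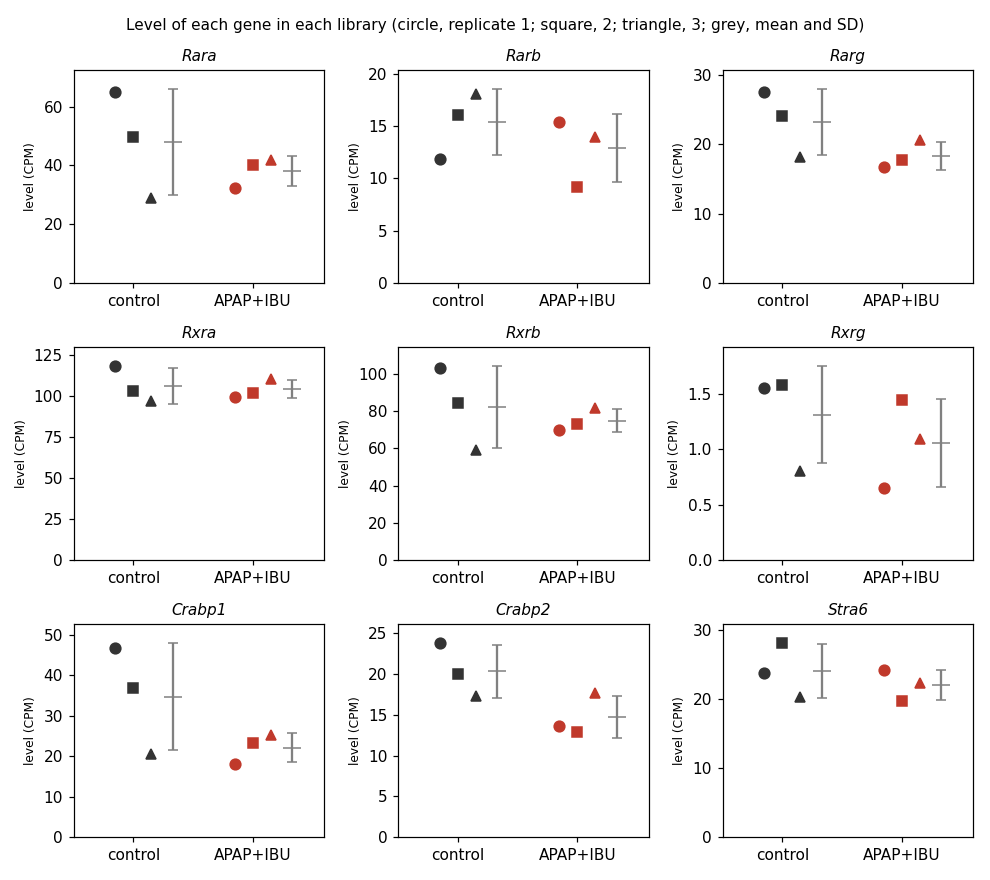
Level of each of the 9 genes in counts-per-million (CPM) in every library, with control libraries in black and APAP + IBU libraries in red; shapes mark the replicate and grey bars the mean and SD of 3 libraries. Control replicate 3 was the lowest control for 8 of the 9 genes, and the ranges of both groups overlapped for all 9.

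The order of the levels across the controls was the same for most of the genes. Control replicate 1 was the highest of the 6 libraries for 6 of the 9 genes, and control replicate 3 was the lowest control for 8 of them, all but Rarb. The spread within the controls was wider than in the exposed group for every gene except Rarb, as the plot of levels by library shows.

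Rara (ENSMUSG00000037992, GRCm38 chromosome 11 from 98927818 to 98974942, plus strand) encodes RARα. Its level was 65.0, 49.6 and 29.0 CPM in control replicates 1, 2 and 3, and 32.5, 40.0 and 41.9 CPM in APAP + IBU replicates 1, 2 and 3. The lowest library was a control, and the exposed libraries lay between control replicates 3 and 2. The means were 47.9 ± 18.1 CPM (SD, n = 3) and 38.1 ± 4.99 CPM (SD, n = 3), a log2 fold change of -0.33 (standard error, SE, 0.27, 95% interval from -0.96 to 0.30, edgeR adjusted p = 0.719), and without control replicate 1 it was -0.045. With replicates 1 and 2 Rara fell by 0.64 on the log2 scale (SE 0.16, edgeR adjusted p = 0.0244). Without control replicate 1 this was -0.44 (edgeR adjusted p = 0.063), and after the length and GC correction -0.35 (edgeR adjusted p = 0.0771).

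Rarg (ENSMUSG00000001288, chromosome 15 from 102234938 to 102257517, minus strand) encodes RARγ. It stood at 27.5, 24.1 and 18.1 CPM in the controls and at 16.7, 17.7 and 20.6 CPM in the exposed libraries, in the order of the replicates. APAP + IBU replicates 1 and 2 were below every control, and replicate 3 was above control replicate 3. The log2 fold change of Rarg over 6 libraries was -0.34 (SE 0.19, 95% interval from -0.78 to 0.10, edgeR adjusted p = 0.692). Over replicates 1 and 2 it was -0.56 (SE 0.13, edgeR adjusted p = 0.021). That call was lost without control replicate 1 (-0.47, edgeR adjusted p = 0.0681) and without APAP + IBU replicate 1 (-0.53, edgeR adjusted p = 0.0891), and after the length and GC correction (-0.28, edgeR adjusted p = 0.141).

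Rarb (ENSMUSG00000017491, chromosome 14 from 16430839 to 16819156, minus strand) encodes RARβ and is itself a classic retinoic acid target through the DR5 printed above. Its level was 11.9, 16.1 and 18.1 CPM in the controls and 15.4, 9.17 and 14 CPM after exposure. Rarb differed from the other receptors in the order of its controls, of which replicate 1 was the lowest. APAP + IBU replicates 1 and 3 lay inside the control range, as did every exposed library for Rara, Rxra and Rxrb. The log2 fold change was -0.26 (SE 0.25, 95% interval from -0.83 to 0.31, edgeR adjusted p = 0.75) over 6 libraries and -0.16 (SE 0.27, edgeR adjusted p = 0.692) over replicates 1 and 2, where it turned to 0.079 without control replicate 2 and to 0.16 without APAP + IBU replicate 2. The value of Rarb is uncertain for a second reason, since 1793 of its 5265 exon bases (34.1%) overlap exons of Top2b on the opposite strand. The libraries were stranded, but the strand setting of the counting is not given in the sources used here. Top2b, a topoisomerase gene, stood far higher, at 199, 238 and 305 CPM in controls and 322, 324 and 235 CPM after exposure, with a log2 fold change of 0.25 (edgeR adjusted p = 0.713) over 6 libraries and 0.58 (edgeR adjusted p = 0.0114) over replicates 1 and 2.

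Rxra (ENSMUSG00000015846, chromosome 2 from 27676440 to 27762957, plus strand), the gene of RXRα, had the highest CPM of the 9 genes and varied least. Its level was 118, 103 and 96.6 CPM in the controls and 99.4, 102 and 110 CPM in the exposed libraries, all of which lay inside the control range. The log2 fold change of Rxra was -0.033 (SE 0.12, edgeR adjusted p = 0.932), and its 95% interval, from -0.31 to 0.25, gives the size of change that the 6 libraries left possible. Over replicates 1 and 2 it was -0.12 (SE 0.097, edgeR adjusted p = 0.398).

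Rxrb (ENSMUSG00000039656, chromosome 17 from 34031812 to 34038399, plus strand), the gene of RXRβ, stood at 103, 84.2 and 59.1 CPM in the controls. The exposed libraries held 69.8, 73.2 and 81.7 CPM, again inside the control range, and the lowest of all 6 was control replicate 3. Its log2 fold change was -0.13 (SE 0.20, 95% interval from -0.59 to 0.33, edgeR adjusted p = 0.824) over 6 libraries. Over replicates 1 and 2 it was -0.37 (SE 0.11, edgeR adjusted p = 0.0516), just outside the threshold, and passed it without control replicate 2 (-0.50, edgeR adjusted p = 0.00516) and in DESeq2 (adjusted p = 0.0305). After the length and GC correction of these 4 libraries it was 0.045 (edgeR adjusted p = 0.758).

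Rxrg (ENSMUSG00000015843, chromosome 1 from 167598384 to 167639623, plus strand), the gene of RXRγ, was near the limit of what this depth could measure. It had 59, 59 and 35 counts in the controls and 33, 66 and 42 counts after exposure, that is 1.55, 1.58 and 0.806 CPM against 0.651, 1.44 and 1.09 CPM. The log2 fold change of -0.30 (SE 0.41, edgeR adjusted p = 0.803) had a 95% interval from -1.24 to 0.64, which holds 0 as well as a decrease of more than 2-fold. Over replicates 1 and 2 it was -0.57 (SE 0.43, edgeR adjusted p = 0.36).

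Crabp1 (ENSMUSG00000032291, chromosome 9 from 54764748 to 54773110, plus strand) had the largest fold change of the 9 genes in both fits. Its level was 46.7, 36.8 and 20.6 CPM in the controls and 18.1, 23.2 and 25.2 CPM in the exposed libraries. Control replicate 3 lay among the exposed libraries, below APAP + IBU replicates 2 and 3. The means of Crabp1 were 34.7 ± 13.2 CPM (SD, n = 3) and 22.2 ± 3.66 CPM (SD, n = 3), a log2 fold change of -0.65 (SE 0.29, 95% interval from -1.31 to 0.017, unadjusted p = 0.0547 and edgeR adjusted p = 0.692). Without control replicate 3 alone it was -0.91 (edgeR adjusted p = 0.0429), the one call among the 9 genes when a single library was left out, and without control replicate 1 it was -0.37 (edgeR adjusted p = 0.999). With replicates 1 and 2 Crabp1 was 0.501 times the control level, a log2 fold change of -1.0 (SE 0.16, edgeR adjusted p = 0.00821), and it remained called with each of the 4 libraries left out. The length and GC correction brought this to -0.39 (edgeR adjusted p = 0.0608).

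Crabp2 (ENSMUSG00000004885, chromosome 3 from 87948666 to 87953376, plus strand) stood at 23.7, 20.0 and 17.3 CPM in the controls and at 13.6, 12.9 and 17.6 CPM after exposure. APAP + IBU replicates 1 and 2 were below every control, and replicate 3 was just above control replicate 3. Its log2 fold change over 6 libraries was -0.47 (SE 0.19, 95% interval from -0.91 to -0.021, unadjusted p = 0.0421 and edgeR adjusted p = 0.692). Over replicates 1 and 2 it was -0.70 (SE 0.15, edgeR adjusted p = 0.0154), called with each of the 4 libraries left out, and -0.42 (edgeR adjusted p = 0.0753) after the length and GC correction. As the gene with the smallest p over 6 libraries, Crabp2 was compared with the 16062 tested genes of at least 1 CPM. The 5 whose log2 level followed it most closely over the 6 libraries were 2610318N02Rik (Pearson's r = 0.997), Cmas (0.997), Mettl8 (0.996), Clns1a (0.996) and 2810004N23Rik (0.995). They are given as a description only. The part of differences between libraries in depth or base composition in this likeness was not tested.

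Stra6 (ENSMUSG00000032327, chromosome 9 from 58063788 to 58153996, plus strand) had the smallest fold change over 6 libraries after Rxra. Its level was 23.8, 28.1 and 20.3 CPM in the controls and 24.2, 19.8 and 22.3 CPM in the exposed libraries, and only 1 exposed library lay below the controls. The log2 fold change of Stra6 was -0.12 (SE 0.17, 95% interval from -0.52 to 0.27, edgeR adjusted p = 0.806) and -0.22 (SE 0.15, edgeR adjusted p = 0.325) over replicates 1 and 2. The sign over 6 libraries rested on control replicate 2, without which it was 0.0016. For single genes the exact two-sided permutation test over libraries, which with 3 against 3 cannot go below 0.1, gave p from 0.2 to 0.8 across the 9.

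**Figure D2:**
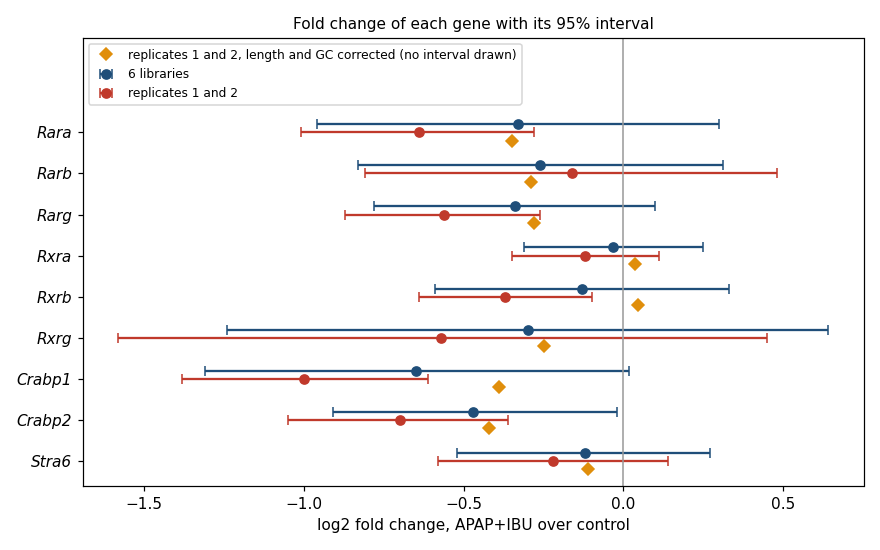
Log2 fold change of APAP + IBU over control for each gene: blue, 6 libraries; red, replicates 1 and 2; orange, replicates 1 and 2 after the length and GC correction. Bars are 95% intervals of edgeR's fit without adjustment for the number of genes; over 6 libraries only the interval of Crabp2, from -0.91 to -0.021, stayed below 0, and the orange points of Rxra and Rxrb lie above 0.

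Levels were compared between genes per length of their exons, as RPKM (CPM divided by the exon length in kilobases). In controls Crabp1 led with 43.3 ± 16.4 RPKM (SD, n = 3), followed by Rxrb with 20.7 ± 5.53 RPKM, Rxra with 19.4 ± 1.99 RPKM, Crabp2 with 15.4 ± 2.44 RPKM and Rara with 11.0 ± 4.15 RPKM. Between neighbours among these 5 the control ranges overlapped. All genes were measured in the same libraries, so this overlap does not show that neighbours had equal levels within a library. Crabp1 (25.7 to 58.2 RPKM) lay above every control value of Rxra, Crabp2 and Rara. Rarg followed with 5.44 ± 1.12 RPKM, below every control value of Rara, then Stra6 with 4.13 ± 0.672 RPKM, whose range met that of Rarg. Rarb with 2.92 ± 0.599 RPKM lay below Stra6, and Rxrg with 0.571 ± 0.191 RPKM below all others, without overlap. In exposed ovaries the order was the same except that Rxra (19.0 RPKM) and Rxrb (18.9 RPKM) changed places. The order depended on the length used. With the longest transcript in place of all exons, Rxrb reached 31.2 RPKM in controls, Crabp2 moved ahead of Rxra, and in exposed ovaries Rxrb (28.5 RPKM) stood above Crabp1 (27.6 RPKM). With the longest coding length Crabp1 (84.5 RPKM) led Rxra (75.6 RPKM) in controls, and Rxra (73.9 RPKM) led Crabp1 (53.9 RPKM) after exposure.

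**Figure D3:**
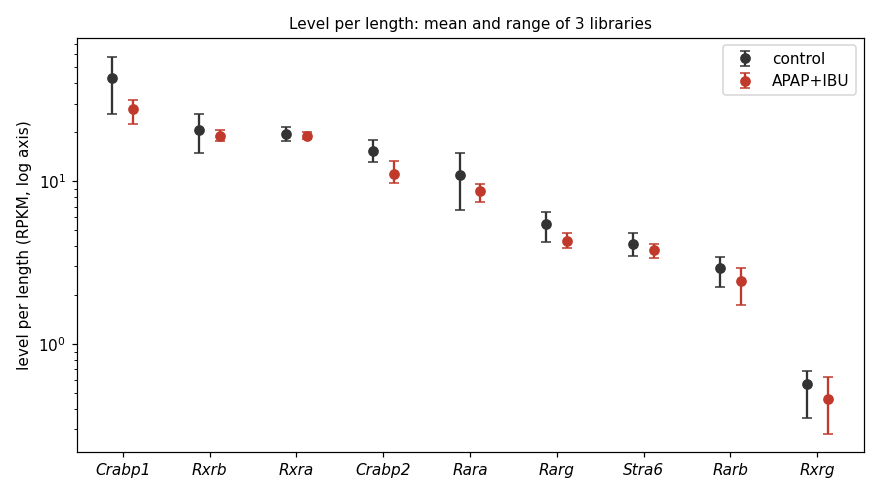
Level of each gene per length of its exons (RPKM, log axis) in control (black) and APAP + IBU (red) ovaries; points are means and bars the range of 3 libraries. On this exon length Crabp1 was highest in both groups (43.3 and 27.6 RPKM), which in exposed ovaries did not hold with the longest transcript or coding length, and Rxrg was lowest (0.571 and 0.462 RPKM).

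The mean shares of the genes within each family differed between the groups by less than the control SD. Of the summed RPKM of the retinoic acid receptors, Rara made up 55.4% ± 8.44 (SD, n = 3) in controls and 56.3% ± 4.37 after exposure, Rarg 28.4% ± 1.18 and 27.8% ± 0.432, and Rarb 16.3% ± 7.27 and 15.9% ± 4.49. Rxra and Rxrb shared the retinoid X receptors about equally, with 48.3% and 50.3% in controls and 49.6% and 49.2% in exposed ovaries, and Rxrg made up 1.38% and 1.20%. Crabp1 gave 72.7% ± 5.55 of the CRABP sum in controls and 71.2% ± 3.17 after exposure. The sum itself was 58.7 ± 18.8 RPKM for the CRABP genes in controls and 38.8 ± 5.97 RPKM after exposure, where control replicate 3, at 38.8 RPKM, lay inside the exposed range. The sum of the retinoic acid receptors was 19.3 ± 4.69 and 15.5 ± 1.45 RPKM, and that of the retinoid X receptors 40.6 ± 7.62 and 38.3 ± 2.58 RPKM. In replicates 1 and 2 alone the sums were 76.2 and 61.0 RPKM in controls against 32.9 and 38.6 RPKM after exposure for the CRABP genes, 23.6 and 20.1 against 14.3 and 15.1 RPKM for the retinoic acid receptors, and 48.1 and 40.8 against 36.1 and 37.6 RPKM for the retinoid X receptors.

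Fold changes moved with base composition in these libraries. When all genes tested over replicates 1 and 2 were split into 5 equal groups by the GC content of their longest transcript, the median log2 fold change was 0.44, 0.17, 0.0028, -0.15 and -0.37 from the lowest GC group to the highest, and the share called lower rose from 3.11% to 26.7%. Of the 9 genes, 8 were above the median GC content of 49.4%, and 6 (Rara, Rarg, Rxra, Rxrb, Crabp1 and Stra6) were in the highest group, which begins at 55.2%. Rxrb, with 61.4% GC, stood at the median of that group, Rxra and Stra6 above it, and Rara, Rarg and Crabp1 below it. Crabp2, with 50.6% GC, lay far under the median of its own group. With the correction, 7 of the 9 fold changes stayed under 0 and their median was -0.28. Over 6 libraries the medians of the 5 groups ran from 0.20 to -0.15.

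**Figure D4:**
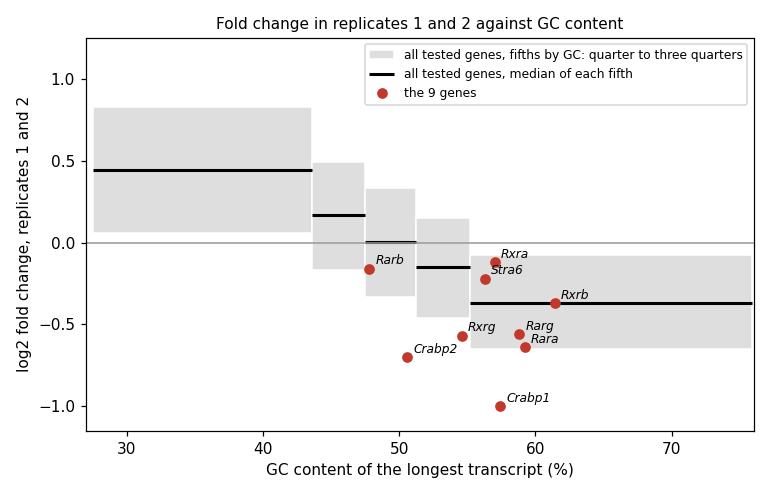
Log2 fold change in replicates 1 and 2 (vertical axis) against GC content of the longest transcript in percent (horizontal axis) for the 9 genes (red), over the median (black) and the interquartile range (grey) of all tested genes in 5 equal groups of GC content. The medians fall from 0.44 to -0.37, and Crabp1 (-1.0), Crabp2 (-0.70) and Rxrg (-0.57) lie below the grey boxes of their groups.

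Of the other carriers and uptake genes, 9 of 12 listed were tested over 6 libraries and none was called. With replicates 1 and 2, 1 of 10 was lower and none higher, where 12.9% of all tested genes were called lower and 14.2% higher. The lower gene was Fabp5, a fatty acid binding protein that also carries retinoic acid. It had 36.9 and 47.2 CPM in controls and 18.7 and 27.9 CPM after exposure (log2 fold change -0.83, edgeR adjusted p = 0.0237). Its replicate 3 libraries ran the other way, at 46.0 CPM (control) and 56.4 CPM (exposed). The most abundant of this list, Scarb1, a lipoprotein and carotenoid receptor, had a log2 fold change of -0.07 over 6 libraries and -0.21 (edgeR adjusted p = 0.127) over replicates 1 and 2. After the length and GC correction 2 genes of the list were lower, Fabp5 (-0.82, edgeR adjusted p = 0.0279) and Scarb1 (-0.45, edgeR adjusted p = 0.0196). The blood carriers of retinol, Rbp4 and Ttr, stand in the liver list as well. The median of the list was -0.07 over 6 libraries and -0.30 over replicates 1 and 2.

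Of the enzymes that make or break down retinoic acid, 0 of 15 were called over 6 libraries and 2 of 14 were lower with replicates 1 and 2, none higher, a share near the 12.9% of all tested genes called lower. After the length and GC correction 2 were lower and 1 higher, beside 14.6% of all genes called in either direction. Cyp26b1, the enzyme that degrades retinoic acid in the fetal gonad, was 18.6, 17.8 and 11.3 CPM in controls and 11.0, 7.36 and 9.73 CPM after exposure, so that its groups did not overlap. Its log2 fold change was -0.76 (SE 0.25, unadjusted p = 0.0152 and edgeR adjusted p = 0.692) over 6 libraries and -0.97 (edgeR adjusted p = 0.018) over replicates 1 and 2, and -0.82 (edgeR adjusted p = 0.0378) after the length and GC correction. Dhrs3, which turns retinaldehyde back to retinol, was called in the same fits of 4 libraries, at -0.66 (edgeR adjusted p = 0.00758) and -0.48 (edgeR adjusted p = 0.0188). Aldh1a2, the main retinoic acid synthase of the embryo, had 158 to 167 CPM in controls and 138 to 149 CPM after exposure, also without overlap, at a log2 fold change of -0.18 (edgeR adjusted p = 0.692). Over replicates 1 and 2 Aldh1a2 was also at -0.18 (edgeR adjusted p = 0.184), and at -0.0089 after the correction.

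Among 13 other nuclear receptors that pair with RXR, 0 were called over 6 libraries and 2 were higher with replicates 1 and 2, where 14.2% of all tested genes were called higher. They were Ppara, the fatty acid receptor PPARα (log2 fold change 0.97, edgeR adjusted p = 0.0152), and Thrb, a thyroid hormone receptor (log2 fold change 1.03, edgeR adjusted p = 0.0258). After the length and GC correction Ppara was at 1.05 (edgeR adjusted p = 0.0162) and Thrb, no longer called, at 0.70 (edgeR adjusted p = 0.0886). The most abundant partner, Thra, had a log2 fold change of -0.11 over 6 libraries and -0.21 (edgeR adjusted p = 0.108) over replicates 1 and 2. The median of these partners was 0.046 over 6 libraries and -0.036 over replicates 1 and 2.

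The list of coregulators of RAR and RXR holds proteins through which the receptors silence or activate their targets. It also holds Nr2c1, Nr2c2, Nr2f1, Nr2f2 and Nr2f6, which are orphan nuclear receptors themselves. Over 6 libraries 0 of 22 were called and the median of the list was 0.20. A fold change under 0 was found for 6 of them, against 50.6% of all tested genes. With replicates 1 and 2, 10 of 22 were higher and 1 was lower, with a median of 0.43. Of all genes tested there, 14.2% were called higher and 12.9% lower. Ep300, a histone acetyltransferase, was 105, 104 and 171 CPM in controls and 176, 204 and 174 CPM after exposure, without overlap, and its log2 fold change in these 4 libraries was 0.88 (edgeR adjusted p = 0.00623). The orphan receptor Nr2c2 (log2 fold change 0.95), the corepressor Ncor1 (0.64), the coactivator Ncoa2 (0.60) and the mediator subunit Med1 (0.63) were called higher as well. For Ep300, Nr2c2, Ncor1, Ncoa2 and Med1 control replicate 3 was the highest control, as it was for Rarb and for none of the other 8 genes. That of Ncoa2, at 148 CPM, was above every exposed library (136 to 145 CPM). After the length and GC correction 3 of the 22 were higher and 2 lower, beside 14.6% of all genes called in either direction. Ep300, Nr2c2 and Med1 were still called higher, and Ncor1 (0.25, edgeR adjusted p = 0.0798) and Ncoa2 (0.14, edgeR adjusted p = 0.397) were not.

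Of 23 tested genes known to respond to retinoic acid, 0 were called over 6 libraries and the median was -0.26. Among them 19 had a fold change under 0, against 50.6% of all tested genes. With replicates 1 and 2, 5 were lower and 2 higher, with a median of -0.34. Of all genes tested there, 12.9% were called lower and 14.2% higher. After the length and GC correction 5 were lower and 2 higher, in part other genes, beside 14.6% of all genes called in either direction. Dhrs3, Cyp26b1 and Tshz1 were called in both fits. Rec8, a meiotic cohesin gene, fell from 227 and 188 CPM to 130 and 135 CPM in replicates 1 and 2 (log2 fold change -0.63, edgeR adjusted p = 0.00945), while the replicate 3 libraries stood at 118 CPM (control) and 136 CPM (exposed). Stra8, the gene that starts meiosis, had 333, 319 and 208 CPM in controls and 212, 274 and 156 CPM after exposure, with a log2 fold change of -0.42 (edgeR adjusted p = 0.692) over 6 libraries and -0.41 (edgeR adjusted p = 0.0495) over replicates 1 and 2. After the correction Rec8 was at -0.30 (edgeR adjusted p = 0.0608) and Stra8 at -0.17 (edgeR adjusted p = 0.392). Cyp26b1 and Dhrs3 stand in this list too, and Cyp26b1 also among the testis somatic markers. Tshz1, a zinc finger gene, was higher, with 53.0 to 60.4 CPM in controls and 66.9 to 84.1 CPM after exposure. Its log2 fold change was 0.56 (edgeR adjusted p = 0.00921) over replicates 1 and 2. Nrip1, a ligand-dependent corepressor, was also higher there (log2 fold change 0.54, edgeR adjusted p = 0.013) and was at 0.031 (edgeR adjusted p = 0.844) after the correction. Over 6 libraries Nrip1 was at 0.26 (edgeR adjusted p = 0.706). Its control replicate 3, at 71.4 CPM, was above every exposed library (63.5 to 64.9 CPM).

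**Figure D5:**
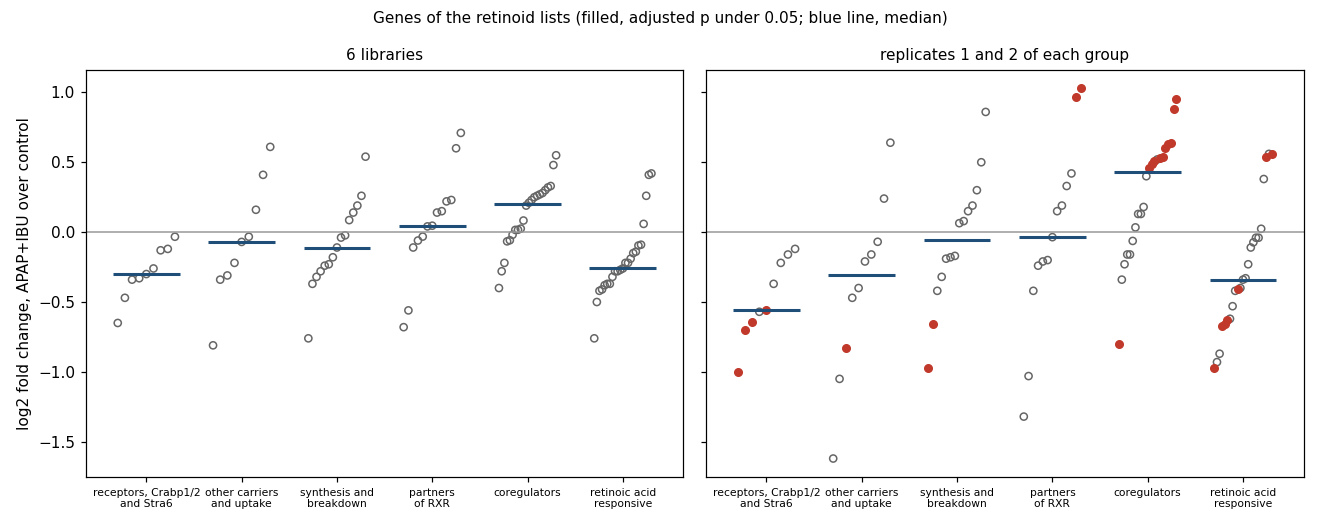
Log2 fold change of APAP + IBU over control for every tested gene of 6 retinoid lists, over 6 libraries (left) and over replicates 1 and 2 (right); filled points have an adjusted p under 0.05 and blue lines are medians. No point is filled on the left, and on the right the receptors, CRABP genes and Stra6 have 4 filled points, all under 0, while the coregulators have 10 above 0 and 1 under.

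Markers of other cells moved with the groups or with single libraries beside these results. Spermatid genes (10, led by Prm1 and Prm2), which an ovary should lack, summed to 143, 42.9 and 39.7 CPM in controls and to 5.90, 1.86 and 3.18 CPM after exposure, and all 10 were lower in every exposed library. Control replicate 1, where this sum and Rara, Rarg, Rxra, Rxrb, Crabp1 and Crabp2 were highest, is the library without which the calls of Rara and Rarg in replicates 1 and 2 were lost. Granulosa precursor markers summed to 829, 691 and 519 CPM in the controls, the same order as these 6 genes, and to 655, 690 and 652 CPM after exposure. Erythroid genes (12, led by Hbb-y and Hbb-bs) summed to between 7065 and 17246 CPM in controls and between 3194 and 10229 CPM after exposure. Testis somatic markers (10, led by Hsd3b1 and Cyp26b1) summed to between 38.6 and 77 CPM and between 35.2 and 42.9 CPM. Endothelial markers (10) summed to between 577 and 599 CPM in controls and between 470 and 540 CPM after exposure, without overlap. Stroma (1648 to 2029 and 1493 to 1776 CPM), surface epithelium (377 to 584 and 403 to 414 CPM), macrophage (118 to 132 and 85.9 to 123 CPM), neuron and glia (33.9 to 57.2 and 39.3 to 46.3 CPM) and mesonephros markers (217 to 254 and 211 to 229 CPM) overlapped between the groups over 6 libraries. In replicates 1 and 2, from which the calls come, more of these sums did not overlap. Both exposed libraries were below both controls there for 35.5% of all tested genes. Granulosa precursor markers were 829 and 691 CPM in controls against 655 and 690 CPM after exposure, barely apart. Stroma was 1829 and 2029 CPM in controls against 1776 and 1593 CPM after exposure, surface epithelium 438 and 584 against 403 and 414 CPM, macrophage 122 and 132 against 88.8 and 85.9 CPM, and mesonephros 254 and 236 against 228 and 211 CPM. Erythroid (7065 and 17246 against 3194 and 5444 CPM) and testis somatic sums (58.8 and 77 against 42.9 and 35.2 CPM) were lower as well in these exposed libraries, and germ cell sums higher (1228 and 1108 against 1386 and 1480 CPM). The genes within a list did not all move with its sum. In these 4 libraries 3 germ cell markers were called lower and 3 higher. For stroma 1 was called lower and 2 higher, and for surface epithelium 4 lower and 1 higher. The part of any of these marker lists in the values of the 9 genes was not tested.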

How the data were processed

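Polyadenylated RNA of 13.5 dpc ovaries was sequenced in 3 control and 3 APAP + IBU libraries. Per the submitters' processing notes and the methods, the authors mapped stranded TruSeq reads to mm10 with TopHat2 2.0.14 and Bowtie2 2.1.0, counted them per Ensembl gene with HTSeq 0.6.1 and deposited raw read counts of each library without normalisation. The titles of exposed samples give IBU only; the grouping follows the exposure label, APAP+IBU.

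From the deposited counts, gene fits were made in edgeR 4.0.16 under R 4.3.3, using TMM scaling, filterByExpr and the two-sided quasi-likelihood test with Benjamini-Hochberg adjustment over all 20167 tested genes (20633 for replicates 1 and 2); a gene is called at an adjusted p under 0.05. Levels are CPM after TMM scaling, and RPKM divides them by the union of exons in GENCODE on GRCm38 (the mm10 assembly). The length and GC correction used a loess fit of span 0.3 in each library, with length and GC content known for 20103 tested genes. DESeq2 1.42.0 was an alternative. Log2 CPM used a prior count of 1. Scripts were tested on simulated counts. Intervals cover 95%.

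The 9 genes, all gene lists and the fit to replicates 1 and 2 were chosen with earlier results of these data known. Named genes are the 9, up to 5 called genes of each other retinoid list by adjusted p with its most abundant gene, 4 well known targets and enzymes (Stra8, Rec8, Aldh1a2 and Cyp26b1), the 5 genes most alike to the one of smallest p, and the 2 most abundant genes of a marker list; Top2b was added for its overlap with Rarb after values were seen. The length and GC correction of replicates 1 and 2 as a check of the 6-library counts was also added after seeing the data. No library was counted as a duplicate, as every pair within a group differed beyond counting noise (chi-square per degree of freedom of at least 17.2).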

Additional observations from a re-analysis of the deposited data

How the results depend on the processing

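Over 6 libraries no alternative that kept all of them called any of the 9 genes. The number with an unadjusted p under 0.05, 1 as reported, was 2 with upper quartile scaling, with all genes of at least 1 count and in DESeq2, and 0 to 5 with 1 library left out, where 5 came without control replicate 3. Over all genes, 0 calls became 120 without a filter, 192 in DESeq2, and 0 to 1064 with 1 library left out, the 1064 again without control replicate 3. That library also decided the calls of the 9 genes (0 to 1) and of the other retinoid lists (0 to 9). With replicates 1 and 2 only, the 9 genes had 4 calls (5 at an unadjusted p), the other lists 20 and all genes 5607; with the length and GC correction as well these were 0 (4 at an unadjusted p), 15 and 3022. Calls of the 9 genes in these 4 libraries ran from 2 without control replicate 1 to 5 without control replicate 2; a lone library of a group was then assumed to vary like the other group.

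Signs turned for 4 of the 9 genes. Rxra became 0.0032 with total counts, 0.004 with the length and GC correction, 0.0057 with this correction and the replicate block, 0.049 without control replicate 1 and 0.035 in replicates 1 and 2 with the correction. Rxrb became 0.023 with the correction, with or without the block, 0.064 without control replicate 1 and 0.045 in replicates 1 and 2 with the correction. Stra6 became 0.0016 without control replicate 2, and Rarb in replicates 1 and 2 became 0.079 without control replicate 2 and 0.16 without APAP+IBU replicate 2. Crabp1, Crabp2, Rara, Rarg and Rxrg were under 0 in every alternative, but with 1 of the 6 libraries left out Rara ran from -0.59 to -0.045, Rxrg from -0.60 to -0.054 and Crabp1 from -0.91 to -0.37, and in replicates 1 and 2 Rxrg ran from -1.24 to -0.11. With 1 library left out the log2 fold changes ran from -0.10 to 0.049 for Rxra, from -0.32 to 0.064 for Rxrb and from -0.23 to 0.0016 for Stra6 over 6 libraries, and from -0.60 to 0.16 for Rarb in replicates 1 and 2. The cause of these changes was not tested.

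Whether the replicate numbers pair the libraries is not given in the sources used here. The methods describe independent experiments with dams of both conditions, so same-numbered pools may share an experiment, though they held different embryos. Their deviations from the group means correlated at -0.07, -0.02 and -0.04, which with so few libraries per group cannot exclude a pairing. With the number as a block, 0 of the 9 genes had an unadjusted p under 0.05 and 2 genes were called in all, or 0 and 29 with the length and GC correction; in replicates 1 and 2 the block left 3 of the 4 calls. Depth limited Rxrg most, with 33 to 66 counts per library.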
